A study of Mus musculus with 3 samples.

Results

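The genes described here are 40 genes of the amino acid response: the transcription factor Atf4, its partner and feedback genes, and genes for amino acid synthesis, amino acid uptake and tRNA charging that ATF4 is known to drive. A gene was represented by the probe set that names it alone and has the highest mean deposited intensity over the arrays. Of the 40 genes, 39 had such a probe set, out of 18193 genes with one in all. Pycr1 was not read, and Mars was read under its current symbol Mars1. Of the 39, 38 were above the floor on at least 1 array and 33 on all 3, and Slc7a11 was below it on every array. The rule that picks the probe sets uses no difference between the arrays, but the genes were listed with earlier results of these data known.

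The CD4+CD25- T cells were taken from female mice aged 6 to 8 weeks, on a BALB/c background, and came from spleen and lymph node. The labels used here do not say how many mice were used or whether they were pooled. All cells carried the Stat6/T-bet double knockout, so every group lacked both the Th2 factor Stat6 and the Th1 factor T-bet, and no wild-type cells were part of the comparison. The cells were activated for 2 days on plate-bound anti-CD3 (5 ug/ml) with anti-CD28 (1 ug/ml). The TGFβ culture had TGFβ alone (5 ng/ml). The IL-23 culture had IL-23 (10 ng/ml) beside IL-6 (10 ng/ml). The combined culture had TGFβ (5 ng/ml) beside IL-6 (10 ng/ml). Each condition was hybridized to 1 Affymetrix array, so no difference below has a replicate check or a p-value.

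When an amino acid runs short, or when unfolded protein, heme loss or viral RNA is sensed, kinases phosphorylate the initiation factor eIF2α, general translation falls and ATF4 mRNA is translated more. ATF4 pairs with C/EBP proteins and other basic leucine zipper factors on composite DNA elements and raises genes that import amino acids, make serine, glycine, asparagine, proline and cysteine, and charge tRNAs. T cells take up more amino acids after activation, when they grow and divide. Much of the control of ATF4 is at translation, which an mRNA array does not see.

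The composite element that ATF4 and C/EBP factors share was looked for in promoter windows from 250 bases before to 50 bases after each transcription start (RefSeq, GRCm38.p6), since this is a feature the genes may have in common apart from their expression. The letters TGATGNAA on either strand were present in 13 of the 32 listed genes with a window (40.6%), against 4.51% of 27025 genes. The 13 were Aars, Asns, Atf3, Chac1, Gars, Iars, Nupr1, Pycr1, Slc1a4, Slc7a11, Tars, Trib3 and Vldlr. Because genes were listed as ATF4 targets, this share is not independent of the list. Slc7a3, Nars, Cars, Lars, Slc1a5, Wars, Cth and Slc7a5 had no window in the table. A second motif, the endoplasmic reticulum stress response element, was also searched on both strands. It was in 0 of the 32 windows and in 0.137% of all genes, so none of the 32 held both motifs. Other elements of the unfolded protein response were not searched, so their absence was not shown. A match is a description of letters, not of binding.

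Matches lying wholly before the start are shown for genes whose levels differed in opposite ways (Atf3 and Nupr1), for the enzyme gene Asns, for Chac1, and for 2 tRNA synthetase genes that stayed within 1.5-fold. Each line reads 5′ to 3′ on the gene's own strand, and the capitals mark the motif.
Atf3, chr1:191183421-191183458, minus strand: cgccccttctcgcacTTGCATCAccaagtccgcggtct
Nupr1, chr7:126625558-126625595, minus strand: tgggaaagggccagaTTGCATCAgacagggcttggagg
Chac1, chr2:119351034-119351071, plus strand: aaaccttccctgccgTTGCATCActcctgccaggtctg
Asns, chr6:7693210-7693247, minus strand: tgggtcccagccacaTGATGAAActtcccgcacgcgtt
Gars, chr6:55037956-55037993, plus strand: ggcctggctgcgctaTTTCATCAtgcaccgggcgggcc
Tars, chr15:11399659-11399688, minus strand: gggccaggagtcccgTTGCATCAgctggtt
Atf3, Nupr1, Chac1 and Tars carried the same 8 letters, and in Atf3 and Nupr1 they began at the same distance, 110 bases before the start.

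Levels are quantile-normalized intensities in arbitrary units, always in the order TGFβ culture, IL-23 culture, combined culture, and a level may be compared between arrays but not between genes. The floor was 44.9, the 95th percentile over 85 probe sets for genes of liver, muscle, eye and other unrelated tissues, and a ratio with 1 array below it is a lower bound. Ratios are log2 differences of these levels, and a gene was called higher or lower at 2-fold or more. The only error that can be given is the spread between probe sets of the same gene, an SD of 0.23 for combined over TGFβ, 0.295 for combined over IL-23 and 0.31 for IL-23 over TGFβ, which leaves out differences between cultures, mice and arrays. The deposited intensities had medians of 35.8, 17.8 and 28.1, lowest for the IL-23 culture, and the scaling between arrays bears on every ratio below.

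The cells read as T cells on all arrays. Of 9 T cell markers, 8 were above the floor on every array, and Trat1 was below it in the combined culture. The B cell genes Cd79a, Cd79b and Pax5 and the myeloid genes Lyz2, Cd14, Itgam, Fcgr3 and Adgre1 were below the floor on every array. The B cell gene Ms4a1 read 46.8, 43.1 and 51.7, and Blnk, of the same list, read 21.9, 45.1 and 40.1, so both lay near the floor. The myeloid gene Csf1r read 63.2, 40.1 and 79.4, above the floor on the TGFβ and combined arrays. The summed level of 7 myeloid markers was 286, 136 and 165, highest on the TGFβ array. That of 6 CD8 T cell and NK cell markers was 643, 439 and 297, also highest there. Among the latter, Nkg7 (230, 51.5 and 51.6), Eomes (107, 65.3 and 6.7) and Cd8a (145, 120 and 80.2) were highest with TGFβ. Cd8b1 (140, 174 and 104) was highest on the IL-23 array, and Klrd1 (19.4, 26.1 and 53.0) on the combined array. Cd8a and Cd8b1 were above the floor on every array. The summed T cell markers were 24877, 30239 and 25185, highest on the IL-23 array. For IL-23 over TGFβ, however, 3 of the 9 were higher and 6 lower, with a median of -0.14. Among the higher were Cd28 (1770, 5316 and 2840) and Cd5 (4394, 7804 and 4955), and among the lower Cd4 (1333, 904 and 716). In bulk RNA, fewer cells of a type and less RNA per cell cannot be told apart.

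Most of the amino acid response genes read highest in the IL-23 culture, and, counted separately, most read lowest in the combined culture. The genes in these counts overlap only in part. Of the 38 genes above the floor on at least 1 array, 27 (71.1%) were highest on the IL-23 array, against 41.6% of all 10012 such genes, and 23 (60.5%) were lowest on the combined array, against 32.3%. The share highest in the IL-23 culture was 73.7% after median scaling (51.5% of all genes) and 62.2% after scaling on the hybridization spikes (29.2% of all genes). Without scaling 10.8% of them and 3.19% of all genes were highest there, and most genes read highest on the brighter TGFβ array. The differences were small for most: with values below the floor set to it, 23 of the 38 stayed within 1.5-fold across the 3 arrays, 9 were between 1.5-fold and 2-fold, and 6 reached 2-fold, namely Atf3, Cth, Sesn2, Aldh18a1, Cebpb and Nupr1. All genes had a similar spread, with 12.3% at 2-fold or more against 15.8% of the listed genes.

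**Figure D1:**
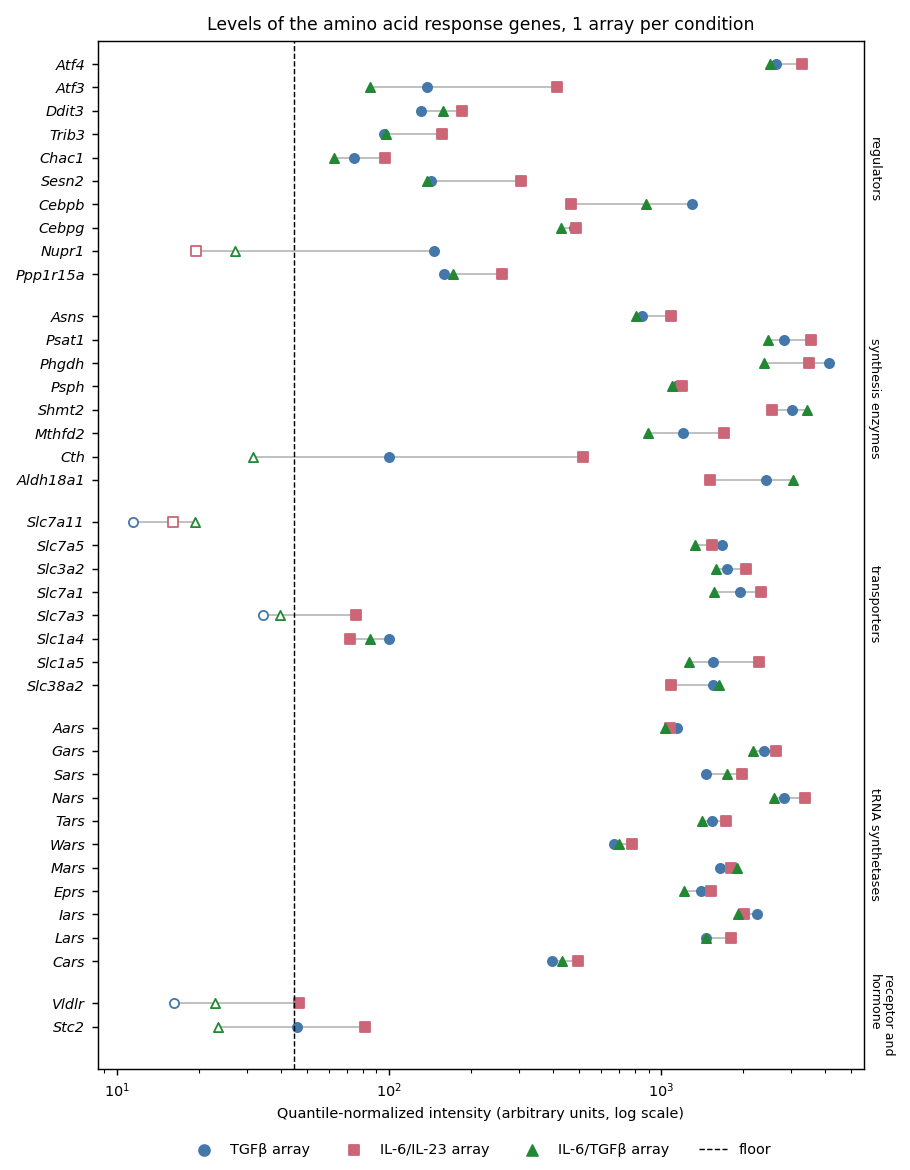
Quantile-normalized intensity (log axis, arbitrary units) of the 39 amino acid response genes on the TGFβ array (circles), the IL-23 array (squares, marked IL-6/IL-23) and the combined array (triangles, marked IL-6/TGFβ), grouped by role. Open symbols lie below the floor of 44.9 (dashed line) and are drawn at their own level. With such values set to the floor, Cth, Atf3, Nupr1 and Cebpb have the widest gaps between arrays.

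The 10 transcription factors and regulators had a median of -0.61 for combined over IL-23, with 8 of the 9 tested below 0. Atf4 itself read 2639, 3296 and 2520. It was highest in the IL-23 culture, with ratios of 0.32 for IL-23 over TGFβ and -0.39 for combined over IL-23, which are little more than the spread of 1 probe set. A further probe set of Atf4, with probes that can match other transcripts, read 1930, 1772 and 1082. It was likewise lowest in the combined culture but highest with TGFβ, at -0.12 for IL-23 over TGFβ. So the probe sets of Atf4 differ in sign for IL-23 over TGFβ.

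Atf3, a stress-induced repressor and activator that ATF4 itself switches on, read 138, 416 and 85.0. The IL-23 array stood 3.01-fold above the TGFβ array and 4.89-fold above the combined array. The difference between the latter pair was past 2-fold in all 8 alternative settings that keep the 2-fold rule, and that over TGFβ in 7 of 8, falling to 0.62 without scaling.

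Sesn2, which encodes a leucine-binding brake on the growth kinase mTORC1, read 143, 305 and 138. It was 2.14-fold higher in the IL-23 culture than with TGFβ and 2.22-fold higher than in the combined culture. A further probe set gave the same picture, with levels of 82.6, 200.4 and 91.4. Over TGFβ the difference was 0.89 after spike scaling and 0.12 without scaling, below 2-fold in both, and for combined over IL-23 it was -0.61 without scaling.

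Cebpb and Nupr1 ran the other way. Cebpb, a leucine zipper partner of ATF4 that also drives inflammatory genes, read 1304, 468 and 878. It was 2.79-fold lower in the IL-23 culture than with TGFβ, and this held in 8 of 8 settings. In the combined culture it stood 0.91 above the IL-23 culture, and a further probe set gave 1.38. Nupr1, a small stress-induced chromatin protein, read 147 with TGFβ and 19.5 and 27.2 on the other arrays, both below the floor. It was at least 3.28-fold lower on each of them, and its further probe set read 133, 22.6 and 28.2. At a floor of 134, the 99th percentile, Nupr1 is no longer called. The summed myeloid markers were also highest on the TGFβ array, where the macrophage gene Mpeg1 read 153 against 21.9 and 25.7, while Csf1r, the other myeloid marker above the floor there, was highest in the combined culture. Their part in the levels of Cebpb and Nupr1 was not tested.

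The other 5 regulators stayed under 2-fold, and all 5 were highest in the IL-23 culture. Trib3, a pseudokinase that feeds back on ATF4, read 96.0, 157 and 97.2, and Ppp1r15a (GADD34), which guides the phosphatase of eIF2α, read 159, 261 and 171. Both had TGFβ and the combined culture at nearly the same level and the IL-23 culture above, by 0.71 each over TGFβ. Chac1, which degrades glutathione, read 74.6, 96.7 and 62.9. Ddit3 (CHOP), the pro-apoptotic factor of the same pathway, read 132, 186 and 158. Cebpg, the C/EBP partner with which ATF4 forms dimers, was level at 480, 487 and 430.

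Among enzymes, Cth showed the widest difference of all 39 genes. Cth encodes cystathionine gamma-lyase, which makes cysteine from cystathionine. It read 99.8, 519 and 31.8, the last below the floor. The IL-23 level was 5.20-fold above TGFβ and at least 11.6-fold above the combined culture, and both calls held in 8 of 8 settings. In the combined culture it was at least 2.22-fold lower than with TGFβ, a call lost at the higher floor. Cth has a single probe set, so no further one could be set beside it.

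The serine and folate enzymes moved within narrower limits. Phgdh, which takes the first step of serine synthesis, read 4145, 3500 and 2385, and the combined culture was lowest on all 4 of its probe sets. Psat1, the next enzyme, read 2829, 3546 and 2468, and Psph, the last, was level at 1136, 1191 and 1097. A further Psat1 probe set read 2141, 1818 and 1728, highest with TGFβ. It stood at -0.24 for IL-23 over TGFβ, of opposite sign, and at -0.07 for combined over IL-23. Mthfd2, a mitochondrial folate enzyme induced in dividing T cells, read 1205, 1705 and 892. It stood at -0.93 for combined over IL-23, and a further probe set gave -1.25, past 2-fold. Shmt2, which passes serine carbon to folate in mitochondria, read 3018, 2552 and 3429, and its 4 probe sets lay between -0.10 and 1.18 for combined over IL-23, so no direction can be given.

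Asns, the asparagine synthetase and a classical amino acid response gene, read 852, 1092 and 811. The IL-23 culture was highest on both of its probe sets, by 0.36 and 0.60 over TGFβ. Aldh18a1, the first enzyme of proline synthesis, had the opposite order, with 2437, 1512 and 3067. It was 2.03-fold higher in the combined culture than in the IL-23 culture, and its 5 probe sets all had that sign, between 0.45 and 1.33. The call was lost after median scaling, with the mean of all probe sets and with probe sets without the _s, _x or _a endings that mark shared probes, where it was 0.77.

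No amino acid transporter was called at 2-fold in any comparison, beside 5.21% to 7.84% of all genes in either direction. In a list this short, 0 is near that share. For Slc7a3 the ratio is only a lower bound. Slc1a5 (ASCT2), which carries glutamine and other neutral amino acids, read 1551, 2295 and 1263 and had the widest difference among transporters above the floor on every array, -0.86 for combined over IL-23, which became -1.10 after median scaling, past 2-fold. Slc7a1, the arginine and lysine carrier CAT-1, read 1954, 2322 and 1565. Slc3a2, the CD98 heavy chain, read 1742, 2058 and 1589. All 3 were lowest in the combined culture. Slc7a5 (LAT1), which pairs with CD98 to import leucine, read 1678, 1537 and 1329. Slc38a2 (SNAT2) read 1558, 1092 and 1638, but its probe sets disagreed in sign, with 0.59 and -0.18 for combined over IL-23. The same held for Slc1a4, a serine and alanine carrier, which read 100.1, 72.2 and 85.1. Slc7a3 was above the floor in the IL-23 culture alone (75.7), at least 1.69-fold higher than on either other array, and with no floor it was 1.13 over TGFβ, past 2-fold. Slc7a11, the cystine importer, was below the floor on every array.

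The 11 tRNA synthetases stayed within 1.5-fold in every comparison, as did 66.7% of all genes above the floor on at least 1 array. Their ratios lay between -0.38 and 0.07 for combined over IL-23, between -0.24 and 0.26 over TGFβ, and between -0.15 and 0.44 for IL-23 over TGFβ. The IL-23 array was highest for Gars, Sars, Nars, Tars, Wars, Eprs, Lars and Cars, the TGFβ array for Aars and Iars, and the combined array for Mars. Nars, which charges asparagine tRNA, read 2843, 3380 and 2595, and Sars, for serine, read 1469, 1986 and 1753. These gaps are close to the spread of 1 probe set, so no single synthetase can be said to differ. Gars and Tars, whose promoter letters are shown above, had their widest differences for combined over IL-23, at 1.21-fold and 1.22-fold.

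The remaining genes were near the floor. Stc2, a secreted glycoprotein hormone, read 45.9, 81.9 and 23.4, and Vldlr, a lipoprotein receptor, read 16.2, 46.9 and 23.0. Both were highest in the IL-23 culture, and a further Stc2 probe set was above the floor on that array alone (95.1), at least 2.12-fold above each other array.

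The combined culture was set beside TGFβ alone, by which the study looked for the genes behind Th17 polarization. Of 36 genes above the floor on at least 1 of these arrays, 0 were at least 2-fold higher and 2 were lower, Cth and Nupr1, beside 2.83% and 2.38% of 9667 genes tested (5.21% in either direction). Both calls rest on combined levels below the floor, and both were lost at the 99th percentile floor, which left 0. At 1.5-fold, 0 were higher and 4 lower (11.1%), with Atf3 (-0.70) and Phgdh (-0.80) added, against 8.33% and 7.15% of all genes (15.5% in either direction). By any amount, 26 of the 36 were lower in the combined culture (72.2%), against 46.9% of all genes, and the median ratio was -0.13, against 0.03 over all genes. Without scaling 5 were lower at 2-fold, beside 7.50% of all genes.

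The comparison of the combined culture with the IL-23 culture, which the study used to separate IL-10 from IL-17 regulation, had a median farther from that of all genes. Of 37 genes, 31 were lower in the combined culture by any amount (83.8%), against 53.2% of 9854 genes tested. At 2-fold, 3 were lower (Atf3, Cth and Sesn2, 8.11% against 3.78%) and 1 was higher (Aldh18a1, 2.70% against 4.07%), beside 7.84% of all genes in either direction. At 1.5-fold, which is about 2 spreads of a probe set, 10 were lower (27.0% against 11.1%) and 3 higher (8.11% against 10.8%), beside 21.9% of all genes in either direction. The 7 lower genes added at 1.5-fold were Trib3, Chac1, Mthfd2, Slc7a3, Slc1a5, Stc2 and Ppp1r15a, and the higher ones were Slc38a2 and Cebpb. The split at 2-fold moved with scaling. After median scaling 5 were lower and 0 higher, beside 5.20% and 3.20% of all genes. Without scaling 2 were lower and 3 higher, beside 1.46% and 12.4% of all genes. Both TGFβ and IL-23 differ between these cultures and cannot be told apart.

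The median ratio in this comparison was -0.31 against -0.03 for all genes, a difference of -0.27. Median scaling, spike scaling and no scaling differ from each other only by a constant factor per array, which shifts all genes alike. The gap between the medians is thus nearly fixed across them, and they are not separate checks of it. Scaling moved both medians together. After median scaling they were -0.55 and -0.19, after spike scaling -0.30 and 0.06, and without scaling 0.10 and 0.42, with differences of -0.35, -0.36 and -0.33. Relative to the median of all genes, 31 of 37 lay lower as reported, and 30 of 37, 30 of 36 and 30 of 36 under those scalings. The listed genes' median was the lower in each of 4 classes of mean level, from dim to bright, with medians of -0.62, -0.61, -0.25 and -0.33 for the listed genes against -0.01, -0.04, -0.03 and -0.03 for all genes. For IL-23 over TGFβ the listed genes' medians in these classes were 0.37, 0.71, 0.19 and -0.0017, against 0.03, 0.08, 0.02 and 0.04, so the 8 brightest showed no such gap.

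**Figure D2:**
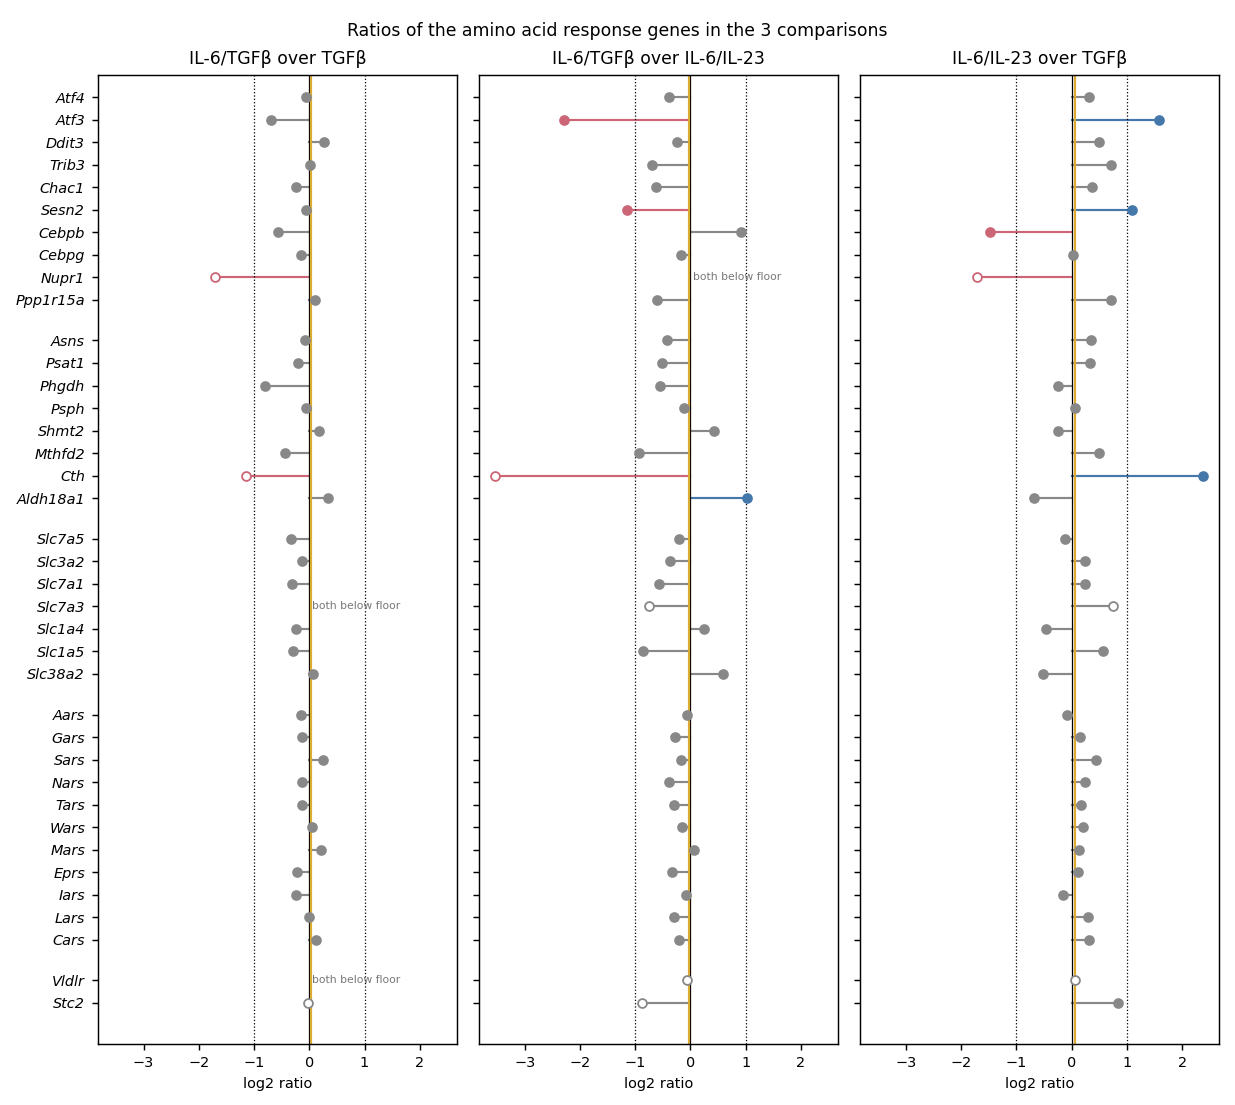
Log2 ratio of each amino acid response gene in the 3 comparisons, with genes at least 2-fold higher in blue, lower in red and others grey. Open circles are lower bounds, dotted lines mark 2-fold and the yellow line is the median of all genes; in the middle panel 31 of 37 ratios are below 0.

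**Figure D3:**
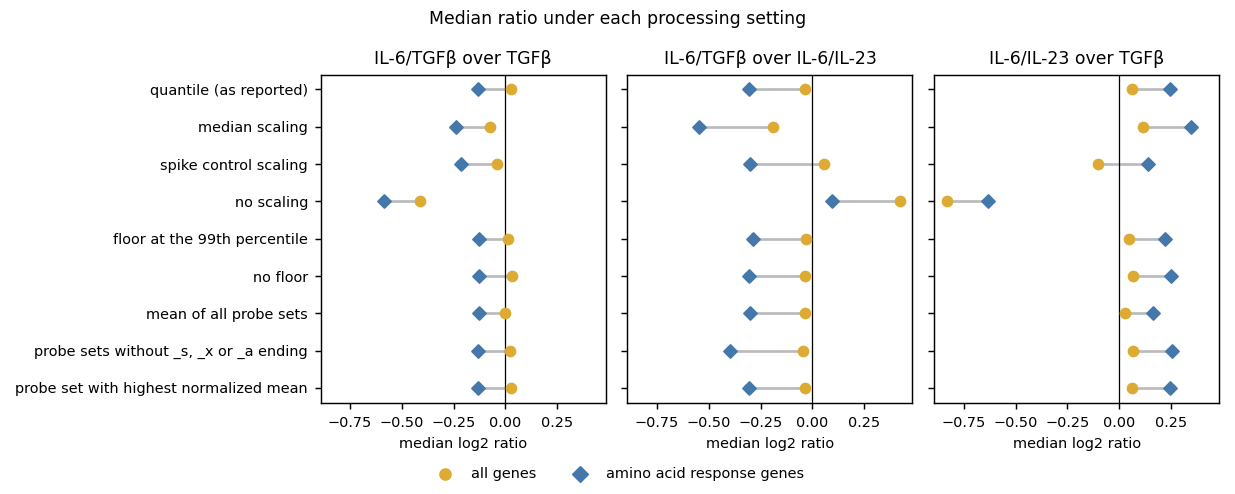
Median log2 ratio of the amino acid response genes (diamonds) and of all genes tested (circles) in each comparison, under quantile normalization and 8 other settings. Without scaling both medians shift, and the diamonds stay on the same side of the circles in all settings shown. Median scaling, spike scaling and no scaling differ only by a constant factor per array, so their gaps are not separate checks.

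The third pair, IL-23 over TGFβ, shares an array with each of the others. Of 38 genes, 3 were at least 2-fold higher (Atf3, Cth and Sesn2, 7.89% against 3.8% of 9757 genes) and 2 lower (Cebpb and Nupr1, 5.26% against 3.67%), beside 7.47% of all genes in either direction. At 1.5-fold, 7 were higher (18.4% against 10.8%), with Trib3, Slc7a3, Stc2 and Ppp1r15a added, and 3 lower (7.89% against 9.35%), with Aldh18a1 (-0.69) added, beside 20.1% of all genes in either direction. The median was 0.24 against 0.06 for all genes. Without scaling the counts were 1 higher and 10 lower, with the medians at -0.64 and -0.83.

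Probe sets of the same gene gave a check on direction. In 20 of the genes, at least 2 probe sets were above the floor on all arrays. For combined over IL-23 all probe sets had the same sign in 15 of these, and the 5 others were Shmt2, Slc1a4, Slc38a2, Wars and Eprs. For combined over TGFβ the number was 13, and for IL-23 over TGFβ it was 10, with Atf4, Psat1, Phgdh, Shmt2, Slc1a4, Slc38a2, Aars, Wars, Eprs and Iars divided. The range between probe sets of a gene had a median of 0.20, 0.34 and 0.35 in these comparisons.

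**Figure D4:**
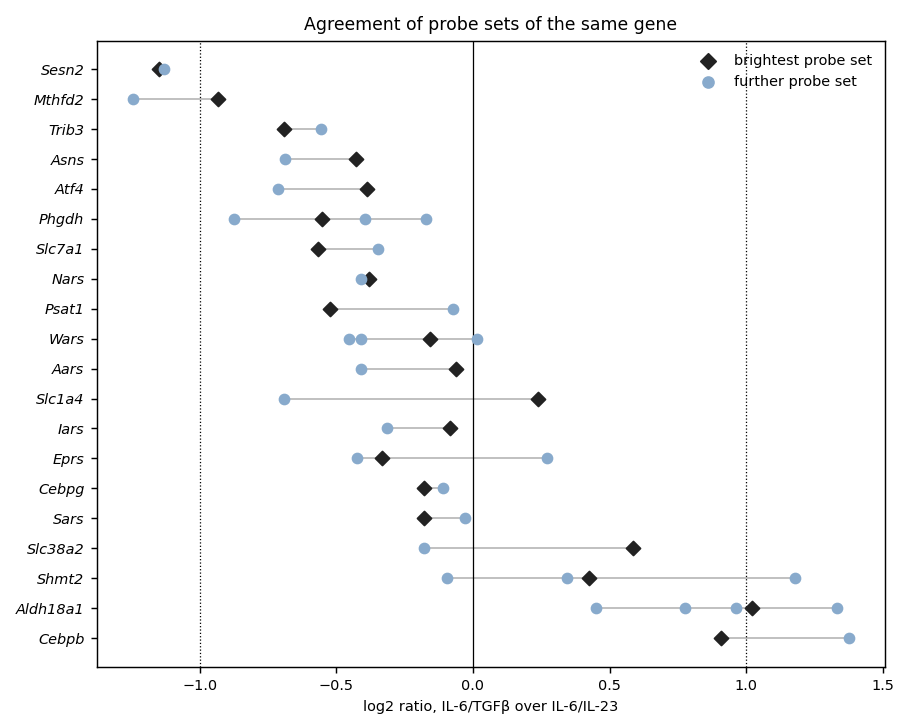
Log2 ratio of combined over IL-23 for every probe set above the floor on all arrays, in the 20 genes with at least 2 of them; the diamond is the brightest probe set and dotted lines mark 2-fold. Probe sets of Sesn2, Mthfd2, Trib3, Asns and Atf4 all lie below 0, those of Cebpb and Aldh18a1 all above, and those of Shmt2, Slc1a4 and Slc38a2 on both sides.

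The listed genes with and without the promoter letters overlapped in their ratios. For combined over IL-23, 10 with the motif had a median of -0.29 and ranged from -2.29 to 0.24, and 19 without it had a median of -0.33 and ranged from -1.15 to 1.02. Outside the list, 15 of 193 genes with the motif were at least 2-fold lower (7.77%) and 7 higher (3.63%), against 3.6% lower and 3.94% higher of 7859 genes without it, with medians of -0.07 and -0.03.

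Related genes were read from lists beside the 40. Some lists share genes, such as Mthfd1l, Got1, Gpt2 and Slc6a9, so their counts are not separate. For combined over IL-23, the counts below stand beside 53.2% of all genes lower by any amount and 7.84% at least 2-fold apart in either direction, so 0 genes at 2-fold in a list of this size is near the share over all genes. Of 12 further ATF4 targets tested for combined over IL-23, 0 were 2-fold apart and 9 were lower by any amount, with a median of -0.36. They included the stress gene Ddit4 (1871, 2227 and 1546) and the mitochondrial PEP carboxykinase Pck2 (178, 190 and 125). Jdp2, a leucine zipper repressor, was above the floor in the combined culture alone (84.7), at least 1.89-fold higher than on the other arrays.

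Of 12 genes that control the response, 0 were 2-fold apart in any comparison, beside 5.21% to 7.84% of all genes, and 7 were lower by any amount for combined over IL-23, with a median of -0.03. Among the eIF2α kinases, Eif2ak4 (GCN2), the sensor of uncharged tRNA, read 154, 80.1 and 149, lowest in the IL-23 culture, where most of the listed genes were highest. Eif2ak1, the heme-regulated kinase, read 278, 348 and 399, and Eif2ak3 (PERK), the kinase of the endoplasmic reticulum, read 427, 370 and 509.

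Synthetases, enzymes and transporters outside the list also had medians below 0 for combined over IL-23, from -0.31 to -0.10. Of 16 mitochondrial tRNA synthetases 0 were 2-fold apart and 13 were lower in the combined culture than in the IL-23 culture, with a median of -0.31, the same as that of the listed genes. Of 11 other cytosolic synthetases and scaffold genes 8 were lower (median -0.15), led by Yars, for tyrosine, at 517, 851 and 534. Of 11 further folate and amino acid enzymes 9 were lower (median -0.21), among them the cytosolic folate enzyme Mthfd1 at 1670, 2603 and 1569. Of 10 other amino acid transporters 6 were lower (median -0.10). In each of these 3 lists 0 genes were 2-fold apart in this comparison.

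Neighbouring stress and growth programmes had medians between -0.15 and -0.05. Of 16 genes of the Xbp1 and Atf6 arms of the unfolded protein response, 8 were lower and 8 higher (median -0.06), 0 of them 2-fold apart in this comparison. Atf6, the membrane-bound sensor, was 2.58-fold higher in the IL-23 culture than with TGFβ (76.1, 196 and 106), and Xbp1, the spliced factor of the Ire1 arm, read 4596, 3129 and 4639. Of 12 genes of Myc and its targets 10 were lower (median -0.12) and 0 were 2-fold apart. Of 8 genes of Nrf2 and its targets, which share Slc7a11 with ATF4, 0 were 2-fold apart in this comparison (median -0.05), while glutathione reductase Gsr read 239, 611 and 501, higher on both arrays with IL-6. Of 9 other factors of the CREB/ATF and C/EBP families 6 were lower by any amount (median -0.15), 1 of them at 2-fold, the cyclic AMP-responsive Crem, at 567, 2699 and 1098.

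**Figure D5:**
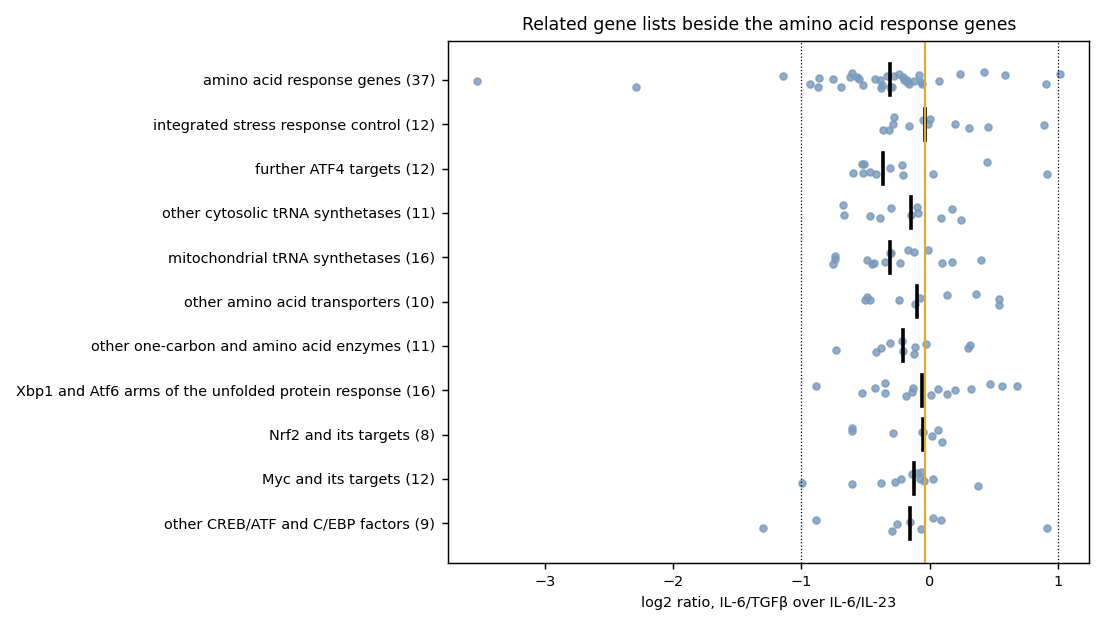
Log2 ratio of combined over IL-23 for the amino acid response genes and 10 related lists, 1 point per gene above the floor on at least 1 of these arrays (number in parentheses). Black bars are list medians, the yellow line is the median of all genes at -0.03 and dotted lines mark 2-fold; the listed genes, the further ATF4 targets and the mitochondrial synthetases have the lowest medians, at -0.31, -0.36 and -0.31.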

How the data were processed

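The deposited table holds 1 linear intensity per probe set and array, per the labels' protocols from biotin-labelled cRNA of total RNA. The sources used here do not give its software, background correction or scaling. Leaving out 64 controls among 45101 probe sets, log2 values of the deposited intensities were quantile-normalized (numpy 2.4.6, Python 3.11.15), which removes any difference in total mRNA. Gene names came from GEO's platform annotation: 34945 probe sets carried 1 symbol, 932 several and 9160 none. 34754 matched RefSeq (GRCm38.p6) by Entrez identifier. Genes were tested when above the floor on at least 1 of the 2 arrays compared. The precision is limited by 1 array per condition. Members and lists were chosen with earlier results of these data known. Named genes follow a rule: members by role, with levels where 2-fold apart or where their role group is described; members below the floor on all arrays by name only; and up to 4 genes of each other list with the largest ratio in any comparison. The listed genes' 87 probe sets include 14 chosen ones with _s, _x or _a endings. Calls were tested on simulated data with planted changes. These were larger than the 2-fold rule and lay in genes well above the floor, so calls near 2-fold or near the floor were not tested. Alternatives covered scaling, floor, probe set choice and a 1.5-fold rule.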

Additional observations from a re-analysis of the deposited data

How the results depend on the processing

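Counts and medians below are of the amino acid response genes, and percentages in parentheses are the shares of all genes called under the same setting. For combined over TGFβ, the 2 genes lower (2.38%) became 5 without scaling (7.50%, median -0.59). The count was 0 with the floor at the 99th percentile (1.53%) and 4 at 1.5-fold (7.15%). For combined over IL-23, the 1 gene higher (4.07%) became 0 with median scaling (3.20%) or with probe sets without ambiguous endings (3.86%). The count was 3 without scaling (12.4%, median 0.10) or at 1.5-fold (10.8%). The 3 lower (3.78%) became 5 with median scaling (5.20%) or no floor (13.5%) and 10 at 1.5-fold (11.1%). For IL-23 over TGFβ, the 3 higher became 1 without scaling, 5 with no floor and 7 at 1.5-fold. The 2 lower became 10 without scaling (median -0.64) and 1 with the floor at the 99th percentile. Median scaling moved the median for combined over IL-23 from -0.31 to -0.55, and without scaling its sign turned. No called ratio of a single gene changed sign under the alternatives run. No paired analysis was possible because each condition has 1 array. With 1 array per condition, no setting tests the spread between cultures, and genes near the floor have the least certain ratios.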
